A study of Mus musculus with 24 samples.

Results

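The genes described here encode the enzymes that cut triglycerides into fatty acids and the proteins that switch those enzymes on or off. They were taken by name, as the 8 genes Pnpla2, Abhd5, Lipe, Mgll, Lpl, Lipc, Gpihbp1 and Angptl4, with every probe set that the probe table of the array assigns to them. This gave 16 probe sets for 7 of the 8 genes, among 18193 genes in all. No listed probe set carries the name of Lipc, the hepatic lipase gene, and it was not analysed here. Each gene is represented by the probe set that is brightest on average over the 24 arrays, and other probe sets are given for some comparisons.

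The study measured RNA of livers and hearts from Ppara knockout (KO) and wild-type (WT) mice of the SV129 strain, of both sexes, on 24 Affymetrix arrays. The groups were female KO, female WT, male KO and male WT in each tissue, with no agent named in the labels, at 10 to 12 weeks of age and at zeitgeber time 14. There were 12 animals of each sex and genotype, and each array held RNA pooled from 4 animals, with 3 pools in each of the 8 groups. Pools carry their label numbers, with 10 to 12 for female KO, 7 to 9 for female WT, 4 to 6 for male KO and 1 to 3 for male WT in each tissue. The labels call the animals knockouts without naming the deleted part of the gene or a tissue-restricted deletion. A pool hides the spread between its animals, so each p-value measures the spread between pools only.

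Values are log2 intensities, where a difference of 1 is a doubling, and ± gives the SD over 3 pools. A gene passed when its adjusted p in limma, a linear model with a variance estimate shared across genes, was under 0.05 after Benjamini-Hochberg adjustment over all genes. Array medians over all probe sets were 2.43 to 2.49 for livers, and hearts had 3.01 to 3.07. The tissues were apparently normalized apart, so levels are not compared between them. The number of arrays limits the precision.

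Triglyceride in a cell is stored in lipid droplets and is released in steps. Adipose triglyceride lipase (encoded by Pnpla2) removes the first fatty acid with the help of its co-activator CGI-58 (Abhd5), hormone-sensitive lipase (Lipe) cuts the diacylglycerol, and monoglyceride lipase (Mgll) releases the last fatty acid. Outside the cell, lipoprotein lipase (Lpl) cuts the triglyceride of circulating lipoproteins on the capillary wall, where the endothelial protein GPIHBP1 holds it and the secreted protein ANGPTL4 inactivates it. PPARα is a transcription factor that fatty acids activate and that turns on genes of their breakdown, and Angptl4 and Pnpla2 are commonly counted among genes that PPAR agonists raise.

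Ppara separated the genotypes, with all KO pools below the WT pools of the same sex in both tissues. The sources used here do not place its probe set within or outside the deleted part. It averaged 7.43 ± 0.16 in female KO livers and 8.47 ± 0.22 in female WT livers, and 7.37 ± 0.12 in male KO livers against 8.49 ± 0.18 in male WT livers. In heart it averaged 5.56 ± 0.24 in female KO pools and 7.09 ± 0.16 in female WT pools, and 5.65 ± 0.41 in male KO pools against 6.91 ± 0.17 in male WT pools. Cardiomyocyte markers fitted the tissue labels, with 11 or 12 of 12 below the array's median gene in every liver and none in any heart, and all 11 measured hepatocyte markers lay above it in every liver. A pair of heart libraries stood apart. The library labelled male KO pool 4 had Xist at 6.62, against 2.80 to 3.12 in the other male hearts, and a median of 4.87 over 12 skeletal muscle markers, against at most 3.44 in the other hearts. The library labelled female KO pool 10 had the Y-linked gene Eif2s3y at 3.34, against at most 2.50 in the other female hearts. Its 11 measured hepatocyte markers had a median of 3.77, against at most 3.23 in the other hearts. Their summed linear intensity was 514 there, against at most 378 in the other hearts. Across the 12 skeletal muscle markers the median KO difference was -0.0064 in female hearts, 0.52 in male hearts and 0.33 over the sexes, where 10 of 12 were positive. Mybpc2, a myosin-binding protein of fast muscle, rose in female hearts (0.55, limma adjusted p = 0.0256) and over the sexes (0.52), Acta1, skeletal muscle actin, fell over the sexes (-0.90, adjusted p = 0.0464), and none passed in male hearts (5 at an unadjusted p under 0.05). The part of these markers in the heart results was not tested. Heart calls below are therefore also given without these 2 pools.

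In female livers none of the 7 measured genes passed between KO and WT (limma), and 4 of 7 had an unadjusted p under 0.05. The test passed 0.813% of all genes there. In male livers none passed either, none had an unadjusted p under 0.05, and the test passed 0.605% of all genes. Averaged over the sexes in liver, only Gpihbp1 passed, downward, where 1.36% of all genes passed. In female hearts only Pnpla2 passed, downward, against 0.533% of all genes. In male hearts no gene of the set passed, 1 had an unadjusted p under 0.05, and 0.401% of all genes passed. Averaged over the sexes in heart, again only Pnpla2 passed, downward, against 0.885% of all genes. At an unadjusted p under 0.05 stood 6.87% of all genes in female liver, 8.75% in male liver and 10.5% in liver over the sexes. In heart it was 6.85% in females, 6.58% in males and 7.81% over the sexes. The median difference of the 7 genes was -0.29 in female livers and 0.05 in female hearts, beside medians of -0.0015 and -0.0053 over all genes. In males it was -0.17 in liver and 0.03 in heart, beside 0.01 and 0.0038 over all genes.

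**Figure D1:**
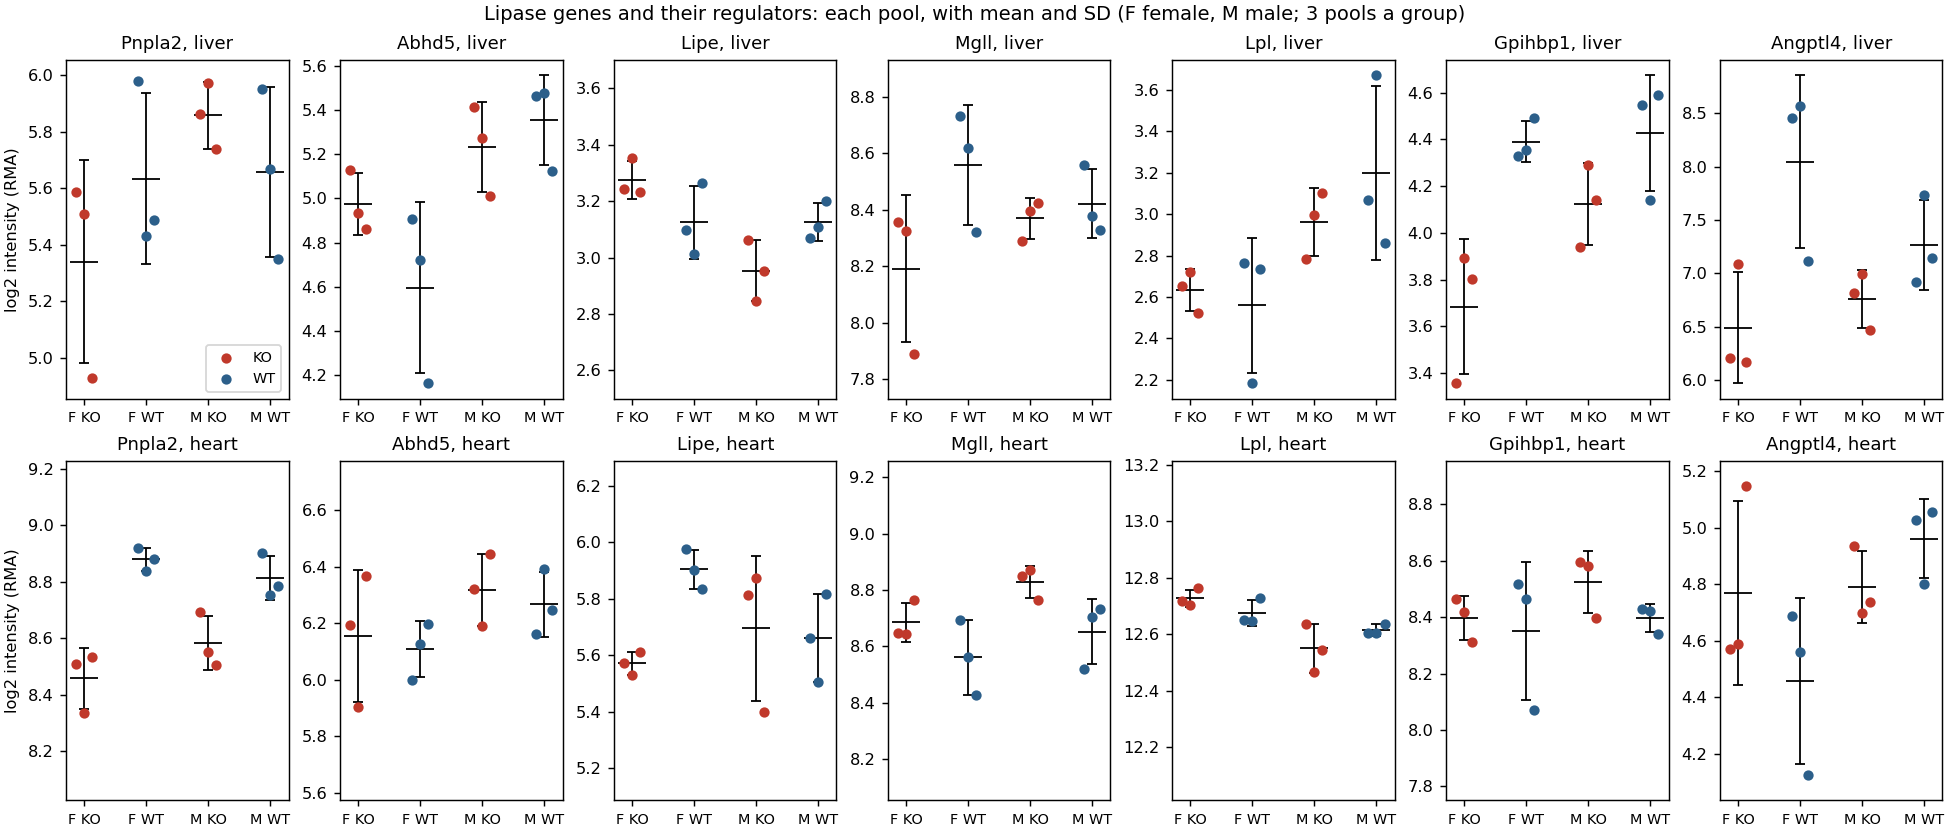
Log2 intensity of the 7 measured genes in every pool of liver (upper row) and heart (lower row), with the mean and SD of 3 pools; F is female and M is male, and KO stands left of WT. Liver Gpihbp1 and Angptl4 of female KO pools lie below female WT pools, and heart Pnpla2 of KO pools lies below WT pools in both sexes.

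**Figure D2:**
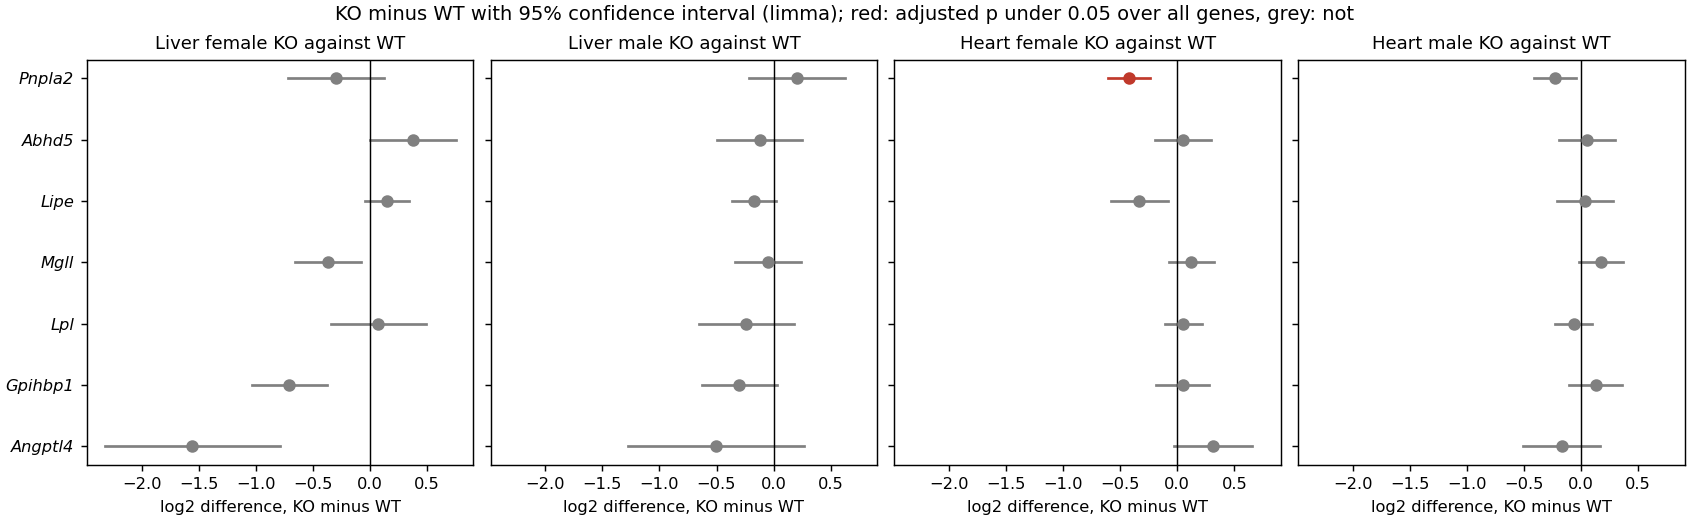
Log2 difference, KO minus WT, of the 7 measured genes with its 95% confidence interval from limma, in each tissue and sex. Pnpla2 in female heart (-0.42) is the only point past the threshold, and the widest intervals are those of Angptl4 in liver.

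Pnpla2, the gene of the lipase that takes the first step in the droplet, fell in the KO heart. Female KO hearts had 8.51, 8.33 and 8.53, against 8.92, 8.84 and 8.88 in female WT hearts. Male KO hearts had 8.69, 8.55 and 8.51, against 8.90, 8.76 and 8.79 in male WT hearts. All KO pools lay below all WT pools in both sexes, with a gap of 0.31 in females and 0.06 in males. The female difference was -0.42 (SE 0.086), or 1.34-fold lower, with a limma adjusted p of 0.0397. The male difference of -0.23 (SE 0.086) had an adjusted p of 0.597. Averaged over the sexes, Pnpla2 was 1.25-fold lower (log2 difference -0.33, SE 0.061, adjusted p = 0.0133). The female effect minus the male effect was -0.19 (adjusted p = 0.978), so the sexes were not shown to differ.

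Without heart pools 4 and 10 the female difference in Pnpla2 was -0.45 and no longer passed (adjusted p = 0.106), whereas the average over the sexes was -0.37 and passed (adjusted p = 0.0288). The female call held in 9 of 23 alternative settings, with differences from -0.46 to -0.25 and adjusted p from 0.00162 to 0.478, and it ended without any one of pools 3, 5, 7, 8, 9, 10, 11 and 12. The average over the sexes held in 19 of 22, with adjusted p from 0.00034 to 0.306. It ended without pool 1 (-0.30, adjusted p = 0.050), with all 24 arrays fitted together (adjusted p = 0.306) and with the mean of both probe sets (-0.17, adjusted p = 0.107). The other probe set of Pnpla2 lay at or below about the array median in heart (2.77 to 3.07 over 12 pools) and differed by -0.02 between KO and WT over the sexes.

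In liver Pnpla2 was at the 85.0th percentile of gene means, against the 96.6th percentile within heart. Female KO livers had 5.59, 5.51 and 4.93 and female WT livers 5.98, 5.43 and 5.49, and these ranges overlapped. Male KO livers had 5.86, 5.97 and 5.74 and male WT livers 5.95, 5.67 and 5.35, also overlapping. The differences were -0.29 in females (95% confidence interval -0.71 to 0.13) and 0.20 in males (-0.22 to 0.62), and neither passed (adjusted p = 0.909 and 0.816). The liver effect minus the heart effect was 0.13 in females (adjusted p = 0.981) and 0.43 in males (adjusted p = 0.670), so the heart fall was not shown to differ from the liver value.

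The 300 bases around the start of Pnpla2 are shown because it is the gene of the set that fell in heart. The window runs from 250 bases before to 50 bases after the start site (RefSeq, build GRCm38.p6, chr7:141454938-141455237, plus strand). Letters would be in capitals where the hexamer AGGTCA, the core of nuclear receptor elements, occurs on either strand, and no capital appears.
Pnpla2: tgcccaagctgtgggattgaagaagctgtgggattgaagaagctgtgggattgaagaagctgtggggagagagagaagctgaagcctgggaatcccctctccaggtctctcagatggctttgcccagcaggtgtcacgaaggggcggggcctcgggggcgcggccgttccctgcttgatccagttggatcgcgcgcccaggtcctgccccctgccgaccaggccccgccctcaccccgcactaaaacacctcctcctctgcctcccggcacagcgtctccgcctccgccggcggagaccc
Windows were found for 4 of the 7 measured genes (Pnpla2, Abhd5, Lipe and Mgll), 6 windows in all, and Abhd5 alone held the hexamer. The hexamer occurs on either strand in 16.3% of 32851 such windows of the table, so 1 of 6 is near that share. The direct repeat AGGTCANAGGTCA, the spacing PPARα binds with its partner RXR, was searched on both strands and occurs in 13 windows of the table (0.0396%) and in none of the 6. A window without these letters says only that they are not in this stretch.

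Abhd5, the gene of the co-activator of that lipase, showed no KO difference that passed in either tissue. Female KO hearts had 6.19, 5.90 and 6.37 and female WT hearts 6.0, 6.13 and 6.20, a difference of 0.05 with a 95% confidence interval of -0.20 to 0.29. In males, KO hearts had 6.32, 6.19 and 6.44 and WT hearts 6.16, 6.39 and 6.25, again with a difference of 0.05 (-0.19 to 0.30). Groups overlapped in both sexes. Another probe set of Abhd5, which is the brighter one in heart, gave -0.06 in females and -0.04 in males.

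In liver, female KO pools of Abhd5 had 5.13, 4.93 and 4.86 and female WT pools 4.90, 4.72 and 4.16, which overlapped with a difference of 0.38 (SE 0.17, adjusted p = 0.718). Male KO livers had 5.41, 5.27 and 5.01 and male WT livers 5.46, 5.48 and 5.12, a difference of -0.12 (adjusted p = 0.884).

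The sexes differed in Abhd5 in WT liver. Female WT livers averaged 4.60 ± 0.39 and male WT livers 5.35 ± 0.20, and all female pools lay below all male pools. The difference was -0.76 (SE 0.17), or 1.69-fold lower in females, with a limma adjusted p of 0.0444, and Abhd5 was the only gene of the 7 to pass there, where 1.76% of all genes passed. A probe set of Abhd5 that is dimmer in liver gave -0.65 for the same pools. The call held in 10 of 22 alternatives, with adjusted p from 0.00372 to 0.181. It ended without any one of pools 1, 2, 3, 4, 5, 8, 9 and 11, and was smallest of these without female WT pool 9, at -0.54 (adjusted p = 0.114).

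In KO livers the female-minus-male difference of Abhd5 was -0.26 (adjusted p = 0.669), none of the 7 genes passed, 3 of 7 had an unadjusted p under 0.05 (10.9% of all genes), and the test passed 1.93% of all genes. The female KO effect on Abhd5 less the male one was 0.50 (adjusted p = 0.994), and none of the 7 genes passed that test in liver, where 1 had an unadjusted p under 0.05 (4.78% of all genes) and 0.066% of all genes passed.

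The window of Abhd5 is shown because it is the only one of the 6 that holds the hexamer, which lies on the minus strand and begins at position -69 from the start site, as the capitals mark (RefSeq, build GRCm38.p6, chr9:122351366-122351665, plus strand).
Abhd5: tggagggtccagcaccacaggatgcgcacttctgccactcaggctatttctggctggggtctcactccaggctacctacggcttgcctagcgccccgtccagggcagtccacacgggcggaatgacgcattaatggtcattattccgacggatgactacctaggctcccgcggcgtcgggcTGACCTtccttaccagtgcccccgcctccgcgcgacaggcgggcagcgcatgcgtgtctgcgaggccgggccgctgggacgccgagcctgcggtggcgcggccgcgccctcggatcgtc

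Lipe, the gene of hormone-sensitive lipase, lay near the level of the median gene in liver, between 2.85 and 3.35 over the 12 pools. Its KO differences there were 0.15 in females (adjusted p = 0.870) and -0.17 in males (adjusted p = 0.607). Every male KO liver (2.85 to 3.06) lay below every male WT liver (3.07 to 3.20), by 0.01 at the closest. In heart, female KO pools had 5.57, 5.53 and 5.61, against 5.97, 5.90 and 5.84 in female WT pools. These groups did not overlap, yet the difference of -0.33 (SE 0.12) had an adjusted p of 0.479. The other probe set of Lipe, dim at 2.53 to 2.78 in heart, gave -0.0022 in females. Male KO hearts had 5.81, 5.87 and 5.40 and male WT hearts 5.66, 5.51 and 5.82, and their difference of 0.03 lay inside the spread of the pools. The female effect minus the male effect in heart was -0.37 (SE 0.16, adjusted p = 0.978). No gene at all passed that test in heart, where 820 genes (4.51%) had an unadjusted p under 0.05, Lipe and Angptl4 among them.

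Mgll, which finishes the breakdown, was among the brightest 4% of genes in both tissues, at the 96.3th percentile in liver and the 96.6th in heart. Female KO livers had 8.36, 8.33 and 7.89 and female WT livers 8.73, 8.62 and 8.32. The ranges overlapped narrowly, and the difference of -0.37 (SE 0.13) had an adjusted p of 0.462. Male KO livers had 8.29, 8.40 and 8.43 and male WT livers 8.56, 8.38 and 8.33, with a difference of -0.05 (adjusted p = 0.945). Its next brightest probe sets gave -0.40 and -0.33 in females and -0.19 and -0.31 in males, and its dimmest one gave 0.19 in females and 0.17 in males. None of the 4 passed in liver.

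In heart the sign of Mgll was the other way. Male KO hearts had 8.85, 8.87 and 8.76 and male WT hearts 8.52, 8.70 and 8.73, and the groups did not overlap. The difference of 0.18 (SE 0.091) had an adjusted p of 0.815, and in females it was 0.12 (adjusted p = 0.878). All 4 probe sets were positive in both sexes, from 0.09 to 0.23, but the dimmest one lay below the array median in heart (2.59 to 3.01). The liver effect minus the heart effect was -0.49 in females (SE 0.16, adjusted p = 0.301) and -0.23 in males (adjusted p = 0.809).

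Without heart pools 4 and 10, Pnpla2 over the sexes was the only one of the 7 genes past the threshold in heart. The differences of the other 6 were then between -0.33 (Lipe) and 0.41 (Angptl4) in females and between -0.24 (Angptl4) and 0.17 (Mgll) in males. Lipe in males changed sign, at -0.03 (adjusted p = 0.993).

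Genes with no overlap between the 3 KO and the 3 WT pools numbered 2 of 7 in female liver (Gpihbp1 and Angptl4), where 10.4% of all genes had none. There was 1 of 7 in male liver (Lipe), where 16.7% had none. In heart there were 2 of 7 in females (Pnpla2 and Lipe) and 2 of 7 in males (Pnpla2 and Mgll), against 12.1% and 11.4% of all genes.

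Lpl, the lipase of the capillary wall, was among the brightest genes of the heart and near the median gene in liver. Female KO hearts had 12.72, 12.70 and 12.76 and female WT hearts 12.65, 12.65 and 12.73. In males, KO hearts had 12.64, 12.47 and 12.54 and WT hearts 12.60, 12.60 and 12.64. The pools of all 4 heart groups spanned 12.47 to 12.76 and KO and WT overlapped in both sexes. The difference was 0.05 in females (95% confidence interval -0.11 to 0.22) and -0.06 in males (-0.23 to 0.10). A second bright probe set gave 0.10 in females and 0.03 in males. In liver the 12 pools lay between 2.18 and 3.67, and the KO differences of 0.07 in females and -0.24 in males were within the spread of the pools.

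Gpihbp1, whose product carries lipoprotein lipase across the endothelial cell and anchors it, fell in KO liver. Female KO livers had 3.36, 3.89 and 3.80, against 4.33, 4.35 and 4.49 in female WT livers, with no overlap. Male KO livers had 3.94, 4.29 and 4.14, against 4.55, 4.14 and 4.59 in male WT livers, and here WT pool 2 lay among the KO pools. Averaged over the sexes the difference was -0.50 (SE 0.11), or 1.42-fold lower, with a limma adjusted p of 0.0361. The female difference of -0.71 (SE 0.15) just missed the threshold (adjusted p = 0.0539), and the male one of -0.30 had an adjusted p of 0.598. The sexes were not shown to differ (female effect minus male effect -0.40, adjusted p = 0.994).

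The call for Gpihbp1 over the sexes held in 13 of 21 alternatives, with differences from -0.58 to -0.42 and adjusted p from 0.00263 to 0.110, and it ended when any one of pools 1, 3, 4, 6, 7, 8 and 9 was left out. Its liver level was modest, between 3.36 and 4.59, at the 74.8th percentile of genes. In bulk tissue, fewer endothelial cells and less transcript per cell cannot be told apart. Of 14 endothelial markers none passed in liver of either sex or over the sexes, with 2 at an unadjusted p under 0.05 in females and 1 in males. Their median difference was -0.09 in females (6 of 14 positive) and 0.01 in males (7 of 14 positive). Over the sexes, where Gpihbp1 passed, their median difference was -0.07, with 4 of 14 positive and 1 at an unadjusted p under 0.05. Their summed linear intensity was 198 to 250 in female KO livers and 231 to 281 in female WT livers, and 239 to 275 in male KO livers against 236 to 242 in male WT livers. In each liver 2 to 6 of the 14 lay below the array's median gene. The list median was 2.90 to 3.05, near the median gene of the livers (2.73). The part of these markers in the result was not tested. Among them, in female liver, Kdr and Flt1, receptors of vascular endothelial growth factors, differed by -0.30 (95% confidence interval -0.51 to -0.09, limma adjusted p = 0.341) and -0.10, and Pecam1 and Cdh5, endothelial junction genes, by -0.08 and 0.02. These 4 were singled out after their values were seen.

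Macrophage markers had the following values in female liver. Of 13 measured, none passed (limma, 2 at an unadjusted p under 0.05), 11 were higher in KO, and the median difference was 0.32, against 0.0039 in male liver. Their summed linear intensity was 849, 787 and 627 in female KO pools 10, 11 and 12, against 457, 486 and 874 in female WT pools 7, 8 and 9. WT pool 9 lay above all KO pools. The part of these markers in the values of Gpihbp1 and Angptl4 was not tested.

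In heart Gpihbp1 was at the 95.9th percentile. Female KO hearts had 8.46, 8.42 and 8.31 and female WT hearts 8.52, 8.46 and 8.07. Male KO hearts had 8.59, 8.58 and 8.40 and male WT hearts 8.43, 8.42 and 8.34. The groups overlapped in both sexes, with differences of 0.05 (95% confidence interval -0.19 to 0.28) in females and 0.13 (-0.11 to 0.36) in males. The liver effect minus the heart effect was -0.75 in females (SE 0.19) and missed the threshold (adjusted p = 0.0824), and it was -0.43 in males (adjusted p = 0.602).

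Angptl4, the gene of the secreted inhibitor of lipoprotein lipase, had the largest KO difference of the set in liver. Female KO livers had 6.20, 7.09 and 6.17, against 8.45, 8.57 and 7.12 in female WT livers. KO pool 11 and WT pool 9 nearly met, 0.02 apart, and the groups did not overlap. The difference was -1.56 (SE 0.36), or 2.94-fold lower, and missed the threshold (limma adjusted p = 0.0782). Male KO livers had 6.82, 6.99 and 6.47, against 6.92, 7.74 and 7.14 in male WT livers, and these overlapped, with a difference of -0.50 (adjusted p = 0.733). Averaged over the sexes the difference was -1.03 (SE 0.25, adjusted p = 0.0768). The female difference passed in 3 of 22 alternatives: without pool 9 (-2.02, adjusted p = 0.00384), with all 24 arrays fitted together (-1.56, adjusted p = 0.00276) and among genes above the median level alone (-1.56, adjusted p = 0.0385).

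In heart the KO difference of Angptl4 had other values. Female KO hearts had 4.57, 4.59 and 5.15 and female WT hearts 4.69, 4.56 and 4.12, with an overlapping difference of 0.31 (adjusted p = 0.774). Male KO hearts had 4.94, 4.70 and 4.74 and male WT hearts 5.03, 4.80 and 5.05, a difference of -0.17 (adjusted p = 0.930). The liver effect minus the heart effect in females was -1.87 (SE 0.41) and passed (limma adjusted p = 0.0260), the only gene of the 7 to do so, where 0.698% of all genes passed and 4 of the 7 had an unadjusted p under 0.05 (7.42% of all genes). In males it was -0.33 (adjusted p = 0.903), none of the 7 genes passed, 1 had an unadjusted p under 0.05 (7.77% of all genes), and 0.517% of all genes passed. Without heart pools 4 and 10 the female value was -1.97 (adjusted p = 0.0511). The female call held in 13 of 23 alternatives and ended when liver and heart pools 7, 8, 10 or 12 were left out, with values from -1.82 to -1.52 and adjusted p from 0.0987 to 0.165.

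Angptl4 rests on an _s_at probe set, a class that can bind related transcripts. Its other probe set lay below the array median in both tissues, at 1.79 to 2.25 in liver and 2.18 to 2.48 in heart, and differed by -0.10 between female KO and female WT livers. The probe set that represents Mgll is of the same class.

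Between the sexes in heart, none of the 7 genes passed in KO (limma, 1 at an unadjusted p under 0.05, Lpl, against 6.76% of all genes, with 0.011% of all genes passing) or in WT (1, Angptl4, against 6.18%, with 0.0275% passing). Angptl4 averaged 0.50 lower in female WT hearts than in male WT hearts, on the log2 scale, with no overlap (adjusted p = 0.727). The dim other probe set of Angptl4 went the other way, at 2.39 in female WT hearts and 2.32 in male WT hearts. Over 23 alternatives the difference ran from -0.62 to 0.07, with the other sign in 1. In WT liver 3 of the 7 genes had an unadjusted p under 0.05 (12.3% of all genes). Lpl was lower in female WT livers (2.76, 2.18 and 2.73) than in male WT livers (3.07, 3.67 and 2.86) without overlap, by -0.64 (adjusted p = 0.152). These values lay near the median gene of the livers (2.73). The other probe set of Lpl averaged 2.37 in female WT livers (up to 2.42) and 2.52 in male WT livers (from 2.37), with overlap. The share of all genes without overlap between the sexes was not counted in either tissue.

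The partners of these lipases were set beside them by lists of related genes. Beside the counts below, the share of all genes that passed was 0.813% in female liver and 0.605% in male liver. In female heart it was 0.533% and in male heart 0.401%. Over the sexes it was 1.36% in liver and 0.885% in heart. Of 16 measured genes of intracellular lipolysis, 1 fell and none rose in each sex of each tissue, and that gene was Plin5, which coats droplets and holds both CGI-58 and adipose triglyceride lipase at their surface. Female KO hearts had Plin5 at 4.51, 4.44 and 4.24, against 7.53, 7.45 and 7.33 in female WT hearts. Among males, KO hearts had 4.67, 4.32 and 4.42, against 7.48, 7.66 and 7.53 in WT hearts. Averaged over the sexes it was lower by -3.06 in heart (limma adjusted p = 1.55e-12; -3.14 without pools 4 and 10) and by -2.02 in liver (adjusted p = 0.000715). Its call in liver of 1 sex ended without pool 7 or 8 in females and without any one of pools 1 to 6 in males.

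G0s2, the gene of the protein that inhibits adipose triglyceride lipase, rose in KO liver when both sexes were averaged. It had 8.62 in KO livers and 7.68 in WT livers, a difference of 0.95 (SE 0.20, limma adjusted p = 0.0355), with 0.69 in females and 1.20 in males, neither past the threshold alone. Its call held in 11 of 21 alternatives and ended without any one of pools 2, 3, 4, 6, 7, 8, 9, 10 and 12. Pnpla8, a calcium-independent phospholipase of the same family as Pnpla2, fell by 0.45 in liver (adjusted p = 0.0136). In heart G0s2 differed by 0.31 over the sexes (adjusted p = 0.343).

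Of 18 measured genes of lipoprotein lipolysis (apolipoproteins, lipase maturation and processing factors, remnant receptors), none passed in any tissue and sex. At an unadjusted p under 0.05 stood 1 to 3 of them, where 6.58% to 8.75% of all genes did. Over the sexes in liver 2 rose. Vldlr, the receptor of very low density lipoprotein, was at 2.83 in KO and 2.41 in WT livers, near the array median, with a difference of 0.42 (limma adjusted p = 0.0119). Lsr, a receptor that takes up lipoproteins after lipolysis, was at 8.56 in KO and 8.21 in WT livers (0.35, adjusted p = 0.0240), and its call ended without any one of pools 1, 2, 5, 6, 7, 8, 10 and 11. Vldlr no longer passed when _s_at and _x_at probe sets were left out or when the probe sets of a gene were averaged.

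The fatty acids that lipases release are taken up and bound by another 14 measured genes. Cd36, a fatty acid translocase, fell by 1.51 in female KO liver (limma adjusted p = 0.0201) and had -0.06 in male liver; its call ended without any one of pools 8, 9, 10 and 11. Slc27a2, a very long chain acyl-CoA synthetase, fell in both sexes of KO liver (-0.50 and -0.44), and Fabp1, the liver fatty acid binding protein, fell over the sexes (-0.32, adjusted p = 0.0468). The call for Fabp1 ended without any one of pools 1, 2, 3, 4, 5, 7, 8, 9, 11 and 12, and that for Slc27a2 in males without pool 1, 2, 4 or 5. In heart Fabp3, the heart fatty acid binding protein, and Slc27a1, a fatty acid transporter, fell over the sexes, each by 0.39 (adjusted p = 0.00111 and 0.00804). Fabp4, the adipocyte and endothelial fatty acid binding protein, rose by 0.40 (adjusted p = 0.00844), and its call ended without heart pools 4 and 10 (0.34, adjusted p = 0.0692), whereas Fabp3 (-0.40, adjusted p = 0.0063) and Slc27a1 (-0.40, adjusted p = 0.0493) still passed. In females alone the calls of Slc27a1 and Fabp4 ended without these pools (adjusted p = 0.105 and 0.133).

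Of 16 measured genes of triglyceride synthesis, none passed in liver of either sex. At an unadjusted p under 0.05 stood 3 of 16 in females and 4 of 16 in males, beside 6.87% and 8.75% of all genes. In heart 3 fell in females, 1 fell in males, 4 fell over the sexes and none rose, beside shares of 0.533%, 0.401% and 0.885% of all genes. At an unadjusted p under 0.05 stood 6 of 16 in female hearts and 5 of 16 in male hearts, beside 6.85% and 6.58% of all genes. Gpam, the mitochondrial glycerol-3-phosphate acyltransferase that starts the pathway, was lower by -0.93 in females and -0.94 in males. Dgat2, which adds the last fatty acid, was lower by -0.66 over the sexes, Agpat2, an acyltransferase of the second step, by -0.62, and Gpat3, a microsomal acyltransferase, by -0.54. These 4 remained past the threshold over the sexes without heart pools 4 and 10, with adjusted p from 4.74e-05 to 0.0451. In females alone Agpat2 no longer passed without pool 7, 9, 11 or 12. The medians of the 16 genes over the sexes were -0.08 in liver and -0.04 in heart, beside 0.0057 and -0.00043 over all genes.

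**Figure D3:**
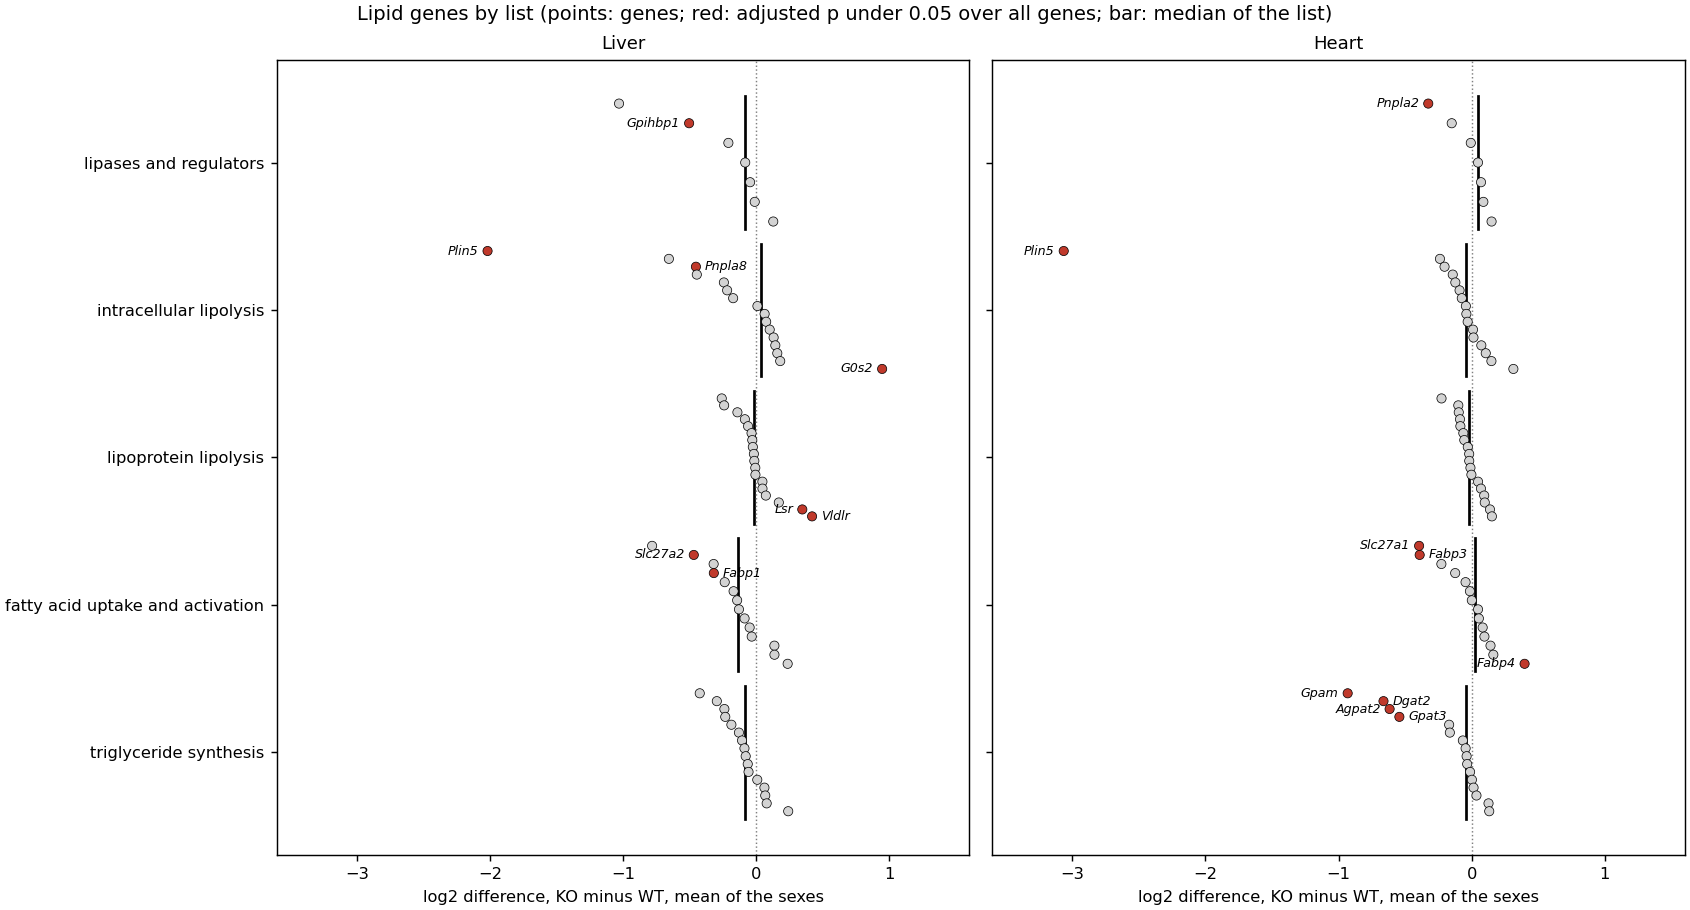
Log2 difference, KO minus WT, averaged over the sexes, of every measured gene in the 5 lists, in liver (left) and heart (right); red points passed and black bars are list medians. Plin5 lies far below every other gene in both tissues, and the 4 genes that passed in triglyceride synthesis in heart are all lower.

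Adipocytes express Pnpla2 and Lipe strongly, and adipocyte markers were set beside them in heart. Adipoq, the adiponectin gene, had 7.0, 4.55 and 6.85 in female KO hearts, against 7.63, 7.31 and 7.99 in female WT hearts, with no overlap (difference -1.52, limma adjusted p = 0.676, and -1.95 without pools 4 and 10). In males it had 8.24, 5.28 and 7.18 in KO hearts and 6.06, 6.31 and 7.59 in WT hearts, a difference of 0.24 with overlap, which was -0.43 without pools 4 and 10 (adjusted p = 0.967). Cidea, a droplet protein of brown fat, had 5.45, 4.93 and 5.71 in female KO hearts, against 6.08, 5.88 and 5.94 in female WT hearts. In males Cidea had 5.98, 5.74 and 5.55 in KO hearts, against 6.27, 6.14 and 6.19 in WT hearts. Over the sexes it fell by 0.52 (adjusted p = 0.0364), with all KO pools below all WT pools of their sex. Without heart pools 4 and 10 it was -0.60 and no longer passed (adjusted p = 0.0512), and the call also ended without any one of pools 1, 2, 3 and 5 to 10. Both genes were singled out from the marker lists after their values were seen.

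Of all 10 measured adipocyte markers, 1 rose in female hearts (Fabp4), none fell, and 4 of 10 had an unadjusted p under 0.05 (6.85% of all genes). The KO difference was positive for 3 of 10 in female hearts (median -0.17) and for 7 of 10 in male hearts (median 0.15). Their summed linear intensity was 2677 to 3605 in female KO hearts and 2779 to 3826 in female WT hearts. In males it was 2509 to 4669 in KO hearts and 2393 to 3188 in WT hearts. The bright gene Fabp4 weighs heavily in these sums. It had 11.17, 11.06 and 11.16 in female KO hearts, against 10.50, 10.67 and 10.79 in female WT hearts. The list median was 4.36 to 4.56 in female KO hearts and 4.52 to 4.60 in female WT hearts. For male hearts it was 3.99 to 4.67 in KO and 4.22 to 4.57 in WT. No marker is at 0 on this scale, and 3 or 4 of the 10 lay below the array's median gene in each heart. Of 10 brown adipocyte markers, Cidea alone fell over the sexes in heart and none rose. Of these brown markers 2 were positive in female hearts (median -0.06) and 4 in male hearts (median -0.05). The part of both lists in the fall of Pnpla2 was not tested. In livers Adipoq lay below the array median in all 12 pools, at 1.91 to 2.27.

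**Figure D4:**
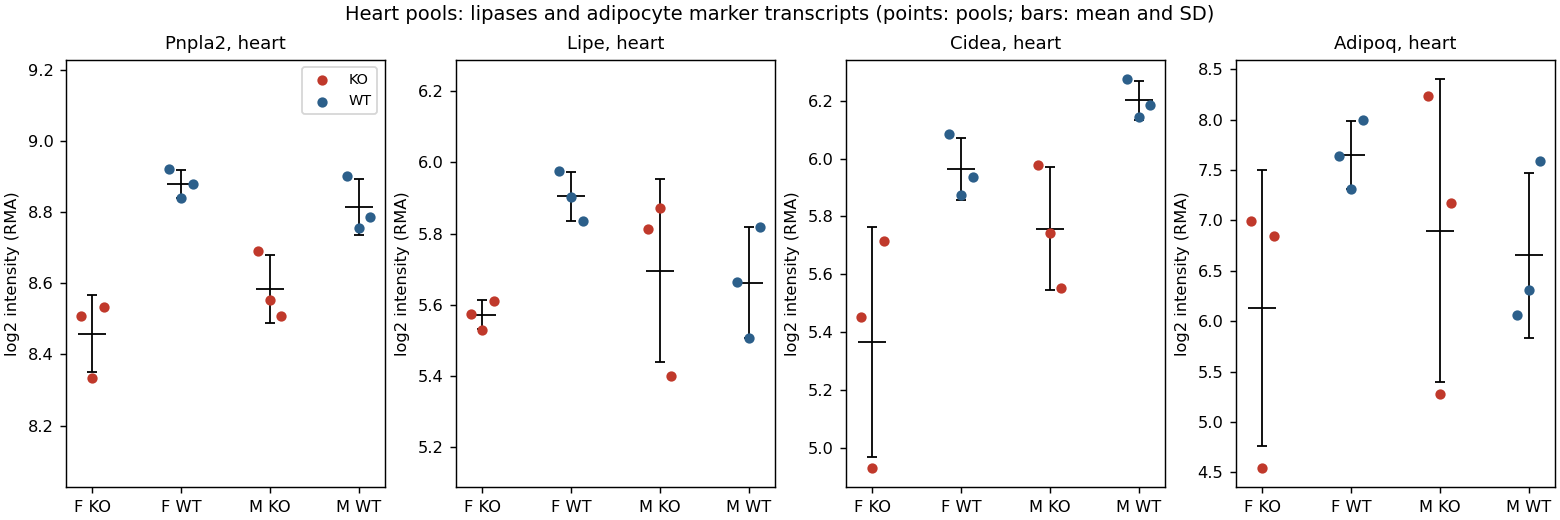
Log2 intensity of Pnpla2, Lipe, Cidea and Adipoq in every heart pool, with the mean and SD of 3 pools; F is female and M is male, and KO stands left of WT. KO pools lie below WT pools of both sexes for Pnpla2 and Cidea, and of females only for Lipe and Adipoq. Cidea and Adipoq were singled out after their values were seen and do not stand for their lists. The KO difference was positive for 3 of 10 adipocyte markers in female hearts and 7 of 10 in male hearts. The only adipocyte marker past the threshold in female hearts, Fabp4, rose and is not shown.

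The genes whose levels followed those of the genes past the threshold most closely are given as a description over 12 arrays of 1 tissue, which share the genotype and sex groups. Pnpla2 and Gpihbp1 were taken because they differed between KO and WT on these arrays. Each r therefore holds that difference, and r within groups was not computed. For Pnpla2 in heart the closest were Rgs2, a regulator of G protein signalling (Pearson r = 0.968), Ppara (0.948), also lower in KO hearts, and Hsd17b11, a droplet-bound dehydrogenase (0.947). For Gpihbp1 in liver the closest were Cyp3a11, a cytochrome P450 (0.878), Got2, mitochondrial aspartate aminotransferase (0.868), and Ptprb, an endothelial receptor phosphatase (0.867). Ptprb had 5.90, 6.18 and 6.43 in female KO livers and 6.60, 6.90 and 6.85 in female WT livers, a difference of -0.62 (limma adjusted p = 0.0538). In male livers its difference was 0.0011, with overlapping pools.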

How the data were processed

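RNA of 24 pools was hybridised to Affymetrix mouse arrays. The deposited values are log2 intensities that the authors made with RMA (robust multi-array averaging), per the submitters' processing notes; its version and the genome build are not given in the sources used here. All 45101 probe sets were read, of which 64 are controls. A table of platform annotation gave 34945 probe sets 1 gene, 932 several and 9160 none; only the first kind was used for genes, with symbols updated through RefSeq. Each of 18193 genes was represented by the probe set with the highest mean over 24 arrays, with no filter on dim genes.

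The 12 arrays of a tissue were fitted together, and all 24 for tissue by genotype, with lmFit and eBayes of limma 3.58.1 in R 4.3.3 (cell means, two-sided, Benjamini-Hochberg over all genes, threshold 0.05), in 14 comparisons. Nothing in the labels says whether liver and heart pools of the same number held the same animals. If the 12 animals of each sex and genotype are the total, the 3 pools of 4 in either tissue drew on the same animals. Same-numbered deviations correlated between -0.166 and 0.105, so numbers were not taken as pairs. The tissue by genotype fit treats liver and heart arrays as independent. The set of genes, the lists and the tests were chosen with earlier results of these data known. Named were all genes of the set, Ppara, up to 4 passing genes of each list, the 3 genes most like each gene that passed, and label or cell type markers. Alternatives changed the arrays fitted, variance, weights, normalization, centring, filter, probe sets, block and pools, and those of Adipoq and Cidea were added after seeing the data. The method was tested on simulated data. Promoter windows are from RefSeq.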

Additional observations from a re-analysis of the deposited data

Results flagged for a closer look

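The KO effect on Angptl4 differed between liver and heart in females by the test of the difference itself in the main fit. That call held in 13 of 23 alternatives. It ended, among others, without heart pools 4 and 10 and with the arrays of females alone. In neither tissue did the female KO difference pass by itself (limma adjusted p = 0.0782 in liver and 0.774 in heart). The KO difference was -1.56 in female liver and 0.31 in female heart, which gives a liver effect minus heart effect of -1.87 (SE 0.41, limma adjusted p = 0.0260). In males the value was -0.33 (adjusted p = 0.903). The difference between the female and male values was not tested.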

How the results depend on the processing

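Under the alternatives, 2184 values of the 7 genes were recomputed: 2122 kept their side of the threshold, 76 of them below it with the other sign, 15 newly passed, 46 no longer passed and 1 reversed. The reversal was Angptl4, liver effect minus heart effect in females, at 0.00983 (adjusted p = 0.998) without _s_at and _x_at probe sets, which leaves its dim probe set alone. The causes of the other changes were not tested. The numbers of genes of the set past the threshold that moved are as follows. With all 24 arrays fitted together they were 2 in female liver, 2 in liver over the sexes, 2 between the sexes in WT liver, and 0 in female heart and in heart over the sexes. With the compared arrays alone they were 0 in female heart and 0 between the sexes in WT liver, and with arrays of females alone 0 for tissue by genotype. A trended and robust variance gave 1 in female liver and 0 for tissue by genotype in females. Array weights gave 1 in female liver, 1 between the sexes in KO liver (Lipe) and 0 for tissue by genotype in females. Renewed quantile normalization gave 0 in liver over the sexes and 0 between the sexes in WT liver, and centring on array medians 0 in female heart. Only genes above the median level gave 2 in female liver and 2 in liver over the sexes. The mean of all probe sets gave 0 between the sexes in WT liver, in female heart, in heart over the sexes and for tissue by genotype in females. Testing every probe set gave 0 between the sexes in WT liver and in female heart, leaving out _s_at and _x_at probe sets gave 0 for tissue by genotype in females, and leaving out heart pools 4 and 10 gave 0 in female heart and for tissue by genotype in females. With each pool left out in turn the number ranged from 0 to 1 in female liver, 0 to 2 in liver over the sexes, and 0 to 1 between the sexes in WT liver, in female heart, in heart over the sexes and for tissue by genotype in females.

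Over all genes the number past the threshold was 148 in female liver (55 to 326 over the alternatives), 110 in male liver (55 to 180), 248 in liver over the sexes (180 to 437), 97 in female heart (59 to 140), 73 in male heart (58 to 124) and 161 in heart over the sexes (109 to 238). It was 12 for sex by genotype in liver (4 to 31), 352 and 320 between the sexes in KO and WT liver (190 to 734 and 206 to 600), 2 and 5 in KO and WT heart (0 to 11 and 0 to 13), and 127 and 94 for tissue by genotype in females and males (63 to 253 and 57 to 122). The share of rises in liver over the sexes was 40.7%, and 53.1% after renewed quantile normalization. With the pool number as a replicate block, Angptl4 had -1.87 in females (adjusted p = 0.0187), with 111 genes past the threshold in females and 67 in males. Among liver pools, 4 of 12 correlated best with the heart pool of their own number. Each was matched only against the 3 heart pools of its group, so 4 of 12 is the share that no pairing would give. Signal near that of the median gene limits Lpl and Lipe in liver.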
